A study of Homo sapiens with 54 samples.

Results

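RNA sequencing was used to compare HEK293T cells transfected with RfxCas13d-N2V7 and the crRNA labelled S4 (N2V7_S4) with cells given the same effector and a non-targeting crRNA (N2V7_NTG). The comparison rests on 6 of the 54 libraries of the series, 3 independent replicates per group, and the libraries were chosen by their labels alone. HEK293T is a human embryonic kidney cell line that carries the SV40 large T antigen. Both groups carried the effector on a plasmid delivered by transient transfection, with the effector under the CAG promoter and the crRNA under the U6 promoter, and the labels place the harvest 48 h later. For RNA sequencing of HEK293T cells, the study itself mentions a later time point. The labels describe S4 only as an additional crRNA and do not give its target site, although they state in general that targeting crRNAs were directed at C9ORF72. RNA was measured in bulk, so that fewer cells of a kind and less RNA per cell cannot be told apart.

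RfxCas13d is an RNA-guided nuclease: a short crRNA leads it to a complementary transcript, which it cuts with a pair of HEPN nuclease domains. Once engaged, the same catalytic site can also cut bystander RNAs, which is called collateral or trans cleavage. N2V7 carries substitutions in the HEPN1 domain that are meant to lessen that activity while target cleavage is kept. A non-targeting crRNA loads the effector without a target in the cell, so the contrast with S4 asks what the crRNA changes in cells that already carry the effector.

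Library 2 of N2V7_S4 stood apart from every other library, and the comparison is therefore given with and without it. Fold changes, adjusted p-values and list values below are without library 2 unless all 3 libraries are named. Its log2 CPM (counts scaled to library size by TMM, prior count of 2) differed from the mean of libraries 1 and 3 with an SD of 0.785 over genes, and 2409 genes lay more than 2-fold away. Libraries 1 and 3 had SDs of 0.574 or less against the other 2 libraries of their group, which include library 2, and the other 51 libraries had SDs of 0.327 to 0.403 with 298 to 474 such genes. The Pearson correlation over genes was 0.985 between libraries 1 and 3 of N2V7_S4, against 0.960 and 0.950 for library 2 with each of them, while N2V7_NTG pairs had 0.987 to 0.988. Library 2 held 10186335 estimated counts, against 12024343 and 10348998 in libraries 1 and 3 and 10554656 to 11786815 in N2V7_NTG, and the other 51 libraries ranged from 9546826 to 15099153.

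Named genes showed where library 2 differed. It was at 0 CPM for RNA28SN2, a 28S ribosomal RNA gene with 1499 and 1376 CPM in libraries 1 and 3, and at 0 for RNA45SN2, the ribosomal RNA precursor, with 133 and 106 CPM there. Ribosomal RNA genes have near-identical copies that the counting could split. As a set they held 0.90% of counts in library 2, against 2.28% and 1.64% in libraries 1 and 3. The other 51 libraries had 1.71% to 4.96%. The splicing factor gene U2AF1 was also listed at 0, against 30.2 and 51.6 CPM, in a family with a near-identical copy that the counting could split. PLBD2, which encodes a phospholipase B domain protein, had 554 CPM in library 2, against 50.001 and 46.674 in libraries 1 and 3. IGF2, a growth factor gene, had 72.7 CPM in library 2, against 9.07 and 9.72. The pseudogene RPL13AP5 had 499 CPM there, against 0.932 and 1.44, and shares sequence with the ribosomal protein gene RPL13A. The remaining genes farthest above were CSNK2A3, MAGEA2B, ASDURF, FOXO6 and PRR36, and those farthest below were RN7SL1, RN7SL2, ACOT1, SLX1A and EMC10. None of these 16 genes was chosen for a difference from N2V7_NTG.

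Base composition moved with library 2. Over 14719 genes with a transcript GC content, the Spearman correlation of library 2's deviation with GC content was -0.446, against 0.253 and 0.474 for libraries 1 and 3 and -0.266 to 0.239 for the other 51 libraries. Genes were split into 5 equal groups by GC content. In the group with the lowest GC content library 2 lay a median of 0.32 above libraries 1 and 3 on the log2 scale, and in the group with the highest the median was -0.55. The HEK293T markers were detected in every library, 12 of 12, with a summed level of 1934 to 2825 CPM in N2V7_S4 and 1975 to 2006 CPM in N2V7_NTG. In the comparison without library 2 given below, 3 of the 12 (PAX2, NEFM and SALL1) were called lower. NEFM, a neurofilament gene, had 162, 500.3 and 200.3 CPM in N2V7_S4 and 265, 285 and 240 CPM in N2V7_NTG. Blood cell markers summed to 9.49 to 17.1 CPM in N2V7_S4 and 7.69 to 8.95 CPM in N2V7_NTG, and 6 of the 12 were at 0 in all 6 libraries. Fibroblast markers, 2 of 12 of which were at 0, summed to 58.7 to 91.2 CPM in N2V7_S4 and 46.7 to 57.4 CPM in N2V7_NTG, and neuroblastoma markers to 117 to 186 CPM in N2V7_S4 and 124 to 127 CPM in N2V7_NTG. Other epithelial markers, 4 of 14 of which were at 0, summed to 37.1 to 39.4 CPM in N2V7_S4 and 34.9 to 36.8 CPM in N2V7_NTG, and EPCAM, an epithelial adhesion gene, was called higher, with 3.56, 6.38 and 3.18 CPM in N2V7_S4 and 1.97, 1.30 and 1.74 CPM in N2V7_NTG. The PAX2 and EPCAM calls were lost with the offset for GC content and length described below. The part of these markers in the results was not tested.

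**Figure D1:**
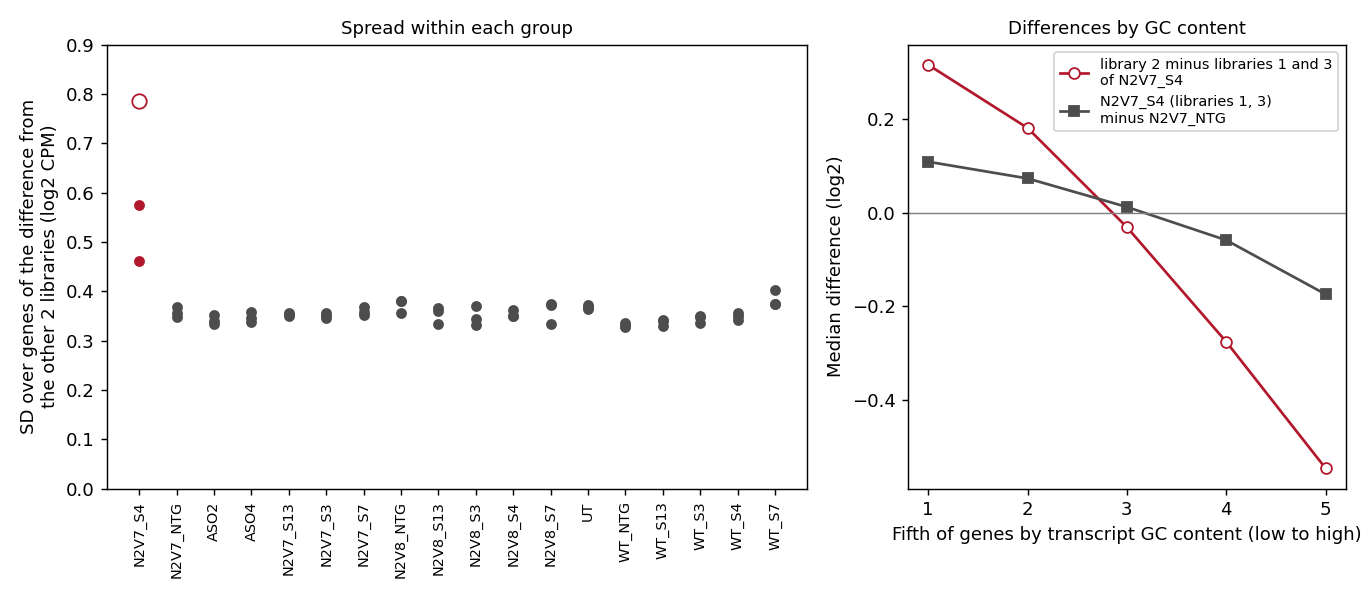
Left, SD over genes of each library's difference from the other 2 libraries of its group (log2 CPM), by group, with N2V7_S4 first and its library 2 as an open circle at 0.785. Right, median log2 difference over 5 equal groups of genes by transcript GC content, from 0.32 to -0.55 for library 2 minus libraries 1 and 3, and from 0.11 to -0.17 for libraries 1 and 3 of N2V7_S4 minus N2V7_NTG.

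C9orf72 (chr9:27546546-27573866 in GRCh38.p14), a gene whose protein acts in membrane traffic and autophagy, did not pass the test at the gene level. It had 30.4, 34.8 and 23.8 CPM in the 3 N2V7_S4 libraries, against 27.0, 31.2 and 27.4 CPM in N2V7_NTG, so that the groups overlapped. The log2 fold change was -0.07 ± 0.11 (SE) without library 2, with a 95% interval of -0.28 to 0.14 and an edgeR adjusted p of 0.722, and 0.05 ± 0.16 with all 3 libraries. Untransfected cells had 29.0 ± 1.31 CPM (SD, n = 3). The gene-level count pools the transcript variants, so a change in 1 variant alone could not be seen here. Of the 41 genes tested in a list of the C9ORF72 complex and autophagy, 1 rose and 4 fell without library 2 (2.44% and 9.76%), near the 3.99% and 7.41% of all genes tested. ULK1, the kinase that starts autophagy, had 14.9, 10.1 and 17.8 CPM in N2V7_S4, against 27.8, 24.9 and 29.5 CPM in N2V7_NTG, a log2 fold change of -0.75 ± 0.13 (adjusted p = 1.73e-05). ATG14, a subunit of the autophagy lipid kinase, changed by -0.46 ± 0.13 (adjusted p = 0.00531), with 10.0, 13.1 and 9.72 CPM in N2V7_S4 and 14.3, 14.1 and 12.5 CPM in N2V7_NTG. The other members called were ATG2A and ATG4B among the falls and ATG3 as the rise, and these 3 were not called once GC content and transcript length were allowed for.

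With all 3 N2V7_S4 libraries and the spread taken from the 6 compared libraries, no gene of 13992 tested was called at an adjusted p under 0.05 and a minimum fold (0% called), although 2220 had an unadjusted p under 0.05. DESeq2 on the same libraries called 352 genes, 121 higher and 231 lower. When the spread was shared over all 54 libraries the count was 3494 (22.7%) without and 4022 (26.2%) with a factor of unwanted variation. That factor was carried by the tested group itself, since N2V7_S4 held 95.6% of its squared weight and library 2 alone 63.4%. Weighting libraries by quality (limma voom, 6 libraries) gave library 2 a weight of 0.10 and called 2214 genes (15.8%), 855 higher and 1359 lower.

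Without library 2, and in a fit of 53 libraries with a term for each group and 1 factor for unwanted variation, 1780 of 15614 genes were called (11.4% of genes tested), of which 623 rose (3.99%) and 1157 fell (7.41%). The median size of the change was 0.41 among rises and 0.49 among falls on the log2 scale, and 45 rises and 97 falls exceeded 2-fold. The count rested on 2 N2V7_S4 libraries. With library 1 also left out it was 1066, and with library 3 left out in its place it was 2222, of which 956 were rises, the lone N2V7_S4 library being assumed to vary like the other groups. Each time 1 of the 5 compared libraries was left out, 137 of the 623 rises and 447 of the 1157 falls kept their call. All 3 N2V7_S4 libraries lay above the 3 N2V7_NTG libraries for 481 of the 623 rises, where 14.2% of all genes tested did so, and below them for 825 of the 1157 falls, where 13.4% did. Those last counts use the N2V7_NTG libraries and libraries 1 and 3 that made the calls, and therefore only place library 2.

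**Figure D2:**
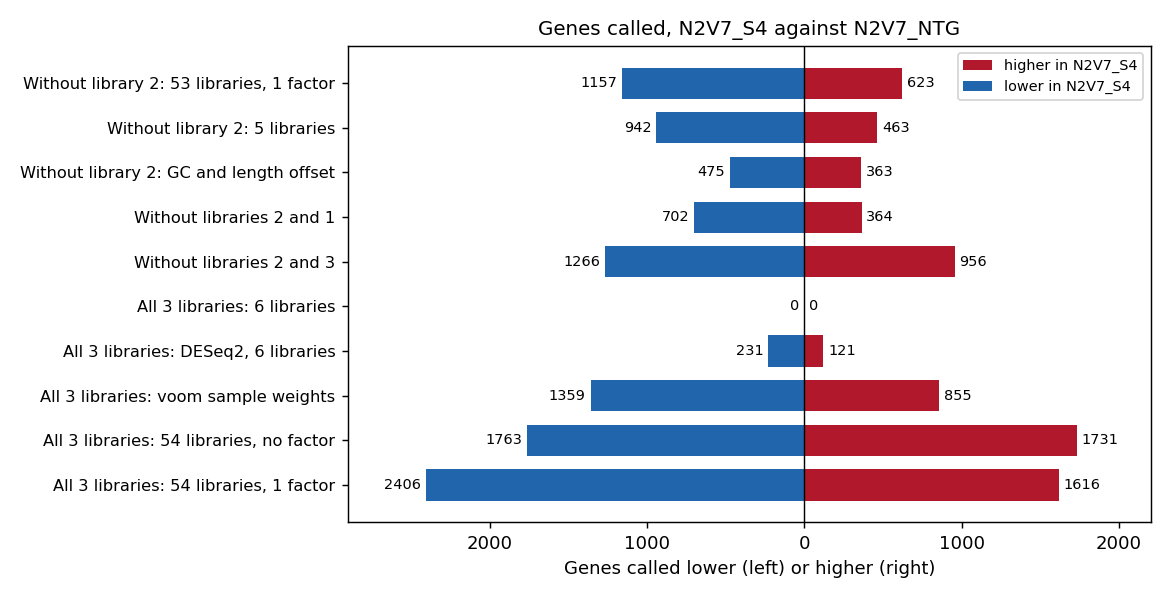
Number of genes called higher (red, to the right) and lower (blue, to the left) in N2V7_S4 than in N2V7_NTG, by the libraries in the fit and the way the spread was estimated. The fit of the 6 compared libraries has 0 calls, and the fit without library 2 has 623 higher and 1157 lower.

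Calls moved with GC content and transcript length. Genes that fell had a median transcript length of 5089 nt and a median GC content of 57.9%, genes that rose had 2196 nt and 42.7%, and genes not called had 3150 nt and 48.0%. Of the 5 equal groups by GC content, in the group with the highest 17.9% fell and 0.941% rose, and in the group with the lowest 1.01% fell and 7.56% rose. With an offset for both properties in each library, an alternative chosen after seeing the data, 838 of 14879 genes were called (5.63%), 363 higher (2.44%) and 475 lower (3.19%). Of these, 684 were also called without the offset, where the same genes gave 1743 calls. The part of base composition and length in the calls was otherwise not tested. Genes with no length or GC content, among them LINC01000, LINC01061, CZ1P-ASNS and PKD1P3-NPIPA1, were not tested with the offset. For the gene lists below, the shares of all genes are 3.99% higher and 7.41% lower without the offset, and 2.44% and 3.19% with it.

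FOS and FOSB, genes of the AP-1 transcription factor, were among the largest rises. AP-1 is a dimer of FOS and JUN family proteins, and its FOS genes are immediate early genes, switched on within minutes of growth factor or stress signals. FOS (chr14:75278828-75282230) had 21.4, 16.99 and 21.5 CPM in the N2V7_S4 libraries, against 8.21, 8.20 and 8.35 CPM in N2V7_NTG. All 3 N2V7_S4 libraries, library 2 included, lay above every N2V7_NTG library. The log2 fold change was 1.38 ± 0.16 without library 2, with a 95% interval of 1.06 to 1.70 (2.60-fold, adjusted p = 1.85e-09), and 1.27 ± 0.16 with all 3 libraries (unadjusted p = 7.14e-05, adjusted p = 0.226). FOSB had 19.4, 14.1 and 17.03 CPM in N2V7_S4, against 7.64, 10.9 and 9.42 CPM in N2V7_NTG, a log2 fold change of 0.98 ± 0.19 (adjusted p = 8.60e-05). Untransfected cells had 16.03 ± 1.61 CPM of FOS and 13.9 ± 1.40 CPM of FOSB (SD, n = 3 each). Of the 46 immediate early and AP-1 genes tested, 8 rose and 2 fell, against 3.99% and 7.41% of all genes, with a median log2 fold change of 0.10 against 0.01 over all genes. The other rises were EGR1, GEM, CCN1, BTG1, IER2 and KLF10, and the falls were IER5L and SRF. No JUN family gene was among the members called. With the offset for GC content and length 7 members rose and none fell, and GEM, CCN1, KLF10, IER5L and SRF were among the calls lost.

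Genes of the integrated stress response made up a second group of rises. In that pathway a kinase phosphorylates the translation factor eIF2, the transcription factor ATF4 is made, and ATF4 switches on amino acid synthesis, amino acid transport and tRNA charging genes. Of 54 members tested, 14 rose and none fell without library 2 (25.9%, where 3.99% of all genes rose), and the median log2 fold change was 0.27. With the offset for GC content and length 17 rose and none fell. With all 3 libraries the median was 0.11 and no member was called, and 16 members had all 3 N2V7_S4 libraries above all N2V7_NTG libraries.

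ASNS (chr7:97851677-97928441), the asparagine synthetase, had 649, 410 and 908 CPM in N2V7_S4 and 407, 346 and 501 CPM in N2V7_NTG. Libraries 1 and 3 lay above all N2V7_NTG libraries and library 2 lay among them. The log2 fold change was 0.90 ± 0.13 without library 2 (1.86-fold, adjusted p = 3.73e-06), and 0.65 ± 0.29 with all 3 libraries (adjusted p = 0.326). Of 18 alternatives to the fit without library 2, 17 kept the ASNS call and 1 lost it. CZ1P-ASNS, a readthrough locus that shares reads with ASNS, is uncertain for that reason, with a log2 fold change of 1.13 ± 0.32 (adjusted p = 0.00767). SLC7A11, the cystine transporter, had 41.9, 36.5 and 41.0 CPM in N2V7_S4, against 25.1, 18.9 and 28.9 CPM in N2V7_NTG, with no overlap and a log2 fold change of 0.77 ± 0.15 (adjusted p = 0.000123). PCK2, the mitochondrial phosphoenolpyruvate carboxykinase, had 99.2, 40.8 and 135 CPM in N2V7_S4, against 69.1, 64.6 and 89.4 CPM in N2V7_NTG. Library 2 was the lowest of the 6 for PCK2, and its log2 fold change of 0.65 ± 0.15 without it (adjusted p = 0.00163) became 0.30 ± 0.39 with it (adjusted p = 0.694). Without library 3 as well as library 2 it was 0.42 (adjusted p = 0.112), and the CHAC1 call was likewise lost without library 3 or without library 1 or 2 of N2V7_NTG. The other rises were CHAC1, which breaks down glutathione, PSAT1 and PSPH of serine synthesis, and MTHFD2 and ALDH1L2 of one-carbon metabolism. Also higher were the tRNA synthetase genes TARS1, SARS1, GARS1 and WARS1, EIF4EBP1, and DDIT4, which restrains mTORC1 signalling. TARS1, GARS1 and WARS1 lost their call with the offset.

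Promoter sequences of 11921 of the 15614 genes tested were found in RefSeq (GRCh38.p14), as windows of 250 bases before to 50 after the start site. They were searched on both strands for TGATGNAA, a form of the element that C/EBP and ATF4 proteins bind together, and for TGACGTCA, the cAMP response element that CREB and ATF proteins bind. The first was present in 1.69% of all promoters, in 14 of 500 promoters of genes that rose (2.8%), in 3 of 902 of genes that fell (0.333%) and in 13 of 44 of the integrated stress response list (29.5%). Members of that list that rose held it in 3 of 10 promoters (30%). The list was chosen for the pathway, so its share describes the list and is not a result of this comparison. The second was present in 3.26% of all promoters, in 3.6% of those of genes that rose and in 4.21% of those of genes that fell. The following windows show the matches in 3 genes described here, ASNS and CHAC1 for the first motif and CGA for the second, in capitals, written 5′ to 3′ on the strand of the gene.
ASNS, at -68 from the start site (chr7:97872459-97872486, minus strand): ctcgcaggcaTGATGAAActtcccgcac
CHAC1, at -209 from the start site, motif on the opposite strand (chr15:40953252-40953279, plus strand): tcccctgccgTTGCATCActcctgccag
CGA, at -142 from the start site (chr6:87095231-87095258, minus strand): aagatcaaatTGACGTCAtggtaaaaat
CGA, at -124 from the start site (chr6:87095213-87095240, minus strand): tggtaaaaatTGACGTCAtggtaattac
A match describes the letters of a window and does not show that a factor was bound there. The ASNS window lies inside the ASNS span given above, so its start site is not the outermost one of that span.

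CGA, SAT1 and G0S2 were 3 further large rises. CGA (chr6:87085498-87095106), which encodes the alpha subunit shared by the glycoprotein hormones and whose promoter holds the pair of sites printed above, had 8.73, 5.66 and 5.58 CPM in N2V7_S4, against 3.04, 3.17 and 2.31 CPM in N2V7_NTG. All 3 N2V7_S4 libraries lay above the N2V7_NTG libraries, and the log2 fold change was 1.35 ± 0.29 (2.55-fold, adjusted p = 0.000558), or 0.97 without N2V7_S4 library 1 as well, which was then not called (adjusted p = 0.0878). SAT1 (chrX:23783173-23786210), the acetyltransferase of the rate-limiting step of polyamine breakdown, had 319, 329 and 227 CPM in N2V7_S4, against 133, 141 and 117 CPM in N2V7_NTG. Library 2 had the highest SAT1 level of the 6, and the log2 fold change was 1.07 ± 0.15 without it (2.10-fold, adjusted p = 1.76e-06) and 1.16 ± 0.16 with it. G0S2, an inhibitor of the main triglyceride lipase, had 20.7, 32.5 and 22.6 CPM in N2V7_S4 and 9.69, 8.57 and 13.1 CPM in N2V7_NTG, again with no overlap and with a log2 fold change of 1.05 ± 0.15 (adjusted p = 4.63e-07). Untransfected cells had 9.89 ± 0.457 CPM of CGA, 393 ± 54.4 CPM of SAT1, 23.0 ± 1.21 CPM of G0S2 and 754 ± 16.8 CPM of ASNS (SD, n = 3 each). For CGA, SAT1, G0S2 and ASNS, the N2V7_NTG mean was thus below those of both N2V7_S4 and untransfected cells.

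The rule for the largest rises also named 4 genes of lower level. GUCY1A1, a subunit of the nitric oxide receptor, had 10.0, 14.2 and 10.8 CPM in N2V7_S4 and 5.67, 4.66 and 6.61 CPM in N2V7_NTG, a log2 fold change of 0.88 ± 0.19 (adjusted p = 0.000494). MAK, a germ cell and photoreceptor kinase, had 6.02, 6.38 and 5.87 CPM in N2V7_S4 and 3.70, 3.26 and 2.81 CPM in N2V7_NTG, a log2 fold change of 0.87 ± 0.26 (adjusted p = 0.00917). Both genes had all 3 N2V7_S4 libraries above N2V7_NTG. PPIL6, a member of the cyclophilin family, changed by 0.86 ± 0.27 (adjusted p = 0.0154), and PCK1, the cytosolic phosphoenolpyruvate carboxykinase, by 0.78 ± 0.20 (adjusted p = 0.00447). For PCK1 the N2V7_NTG libraries themselves ranged from 7.60 to 17.6 CPM, against 20.1 to 23.3 CPM in N2V7_S4. The calls of MAK, PCK1 and CZ1P-ASNS were lost without N2V7_S4 library 1, that of PPIL6 without library 3 and that of PCK1 also without N2V7_NTG library 3.

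**Figure D3:**
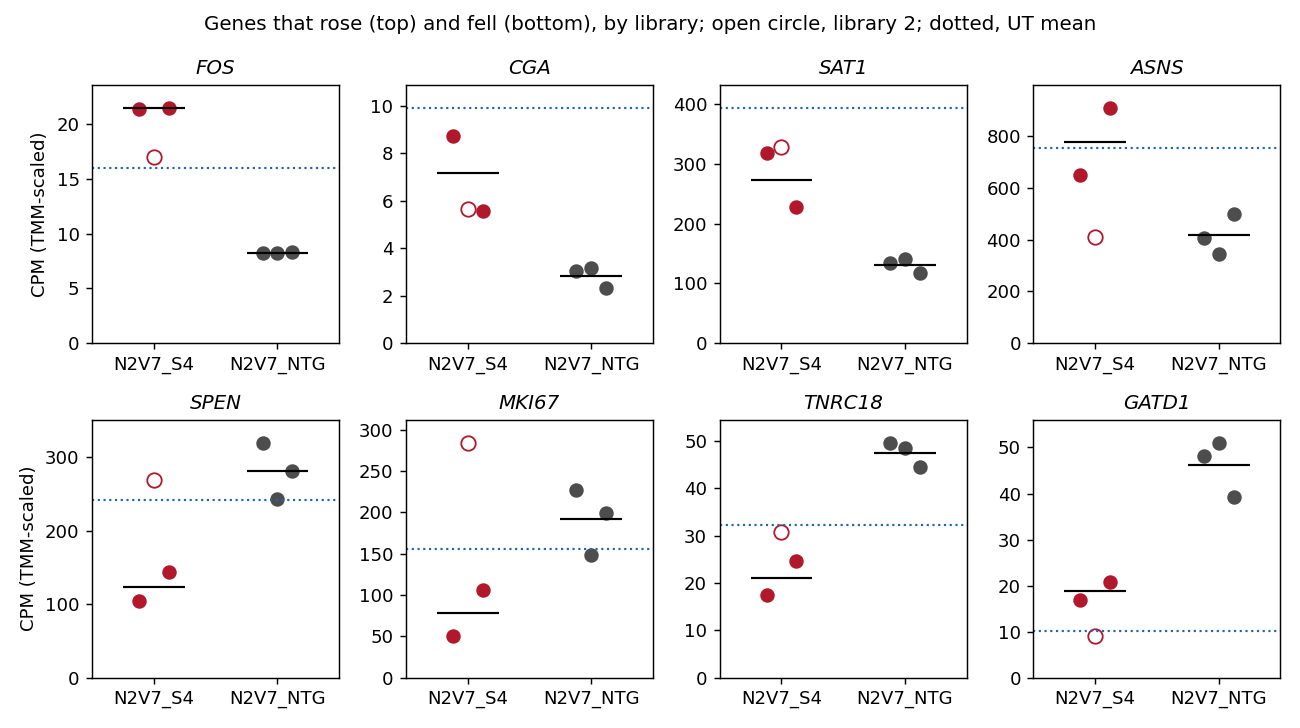
CPM of 4 genes that rose (FOS, CGA, SAT1, ASNS) and 4 that fell (SPEN, MKI67, TNRC18, GATD1) in each library, with N2V7_S4 left of N2V7_NTG. Library 2 is the open circle, the bar is the mean of the libraries in the fit, and the dotted line is the mean of untransfected cells. For SPEN library 2 (269 CPM) lies among the N2V7_NTG libraries, and for MKI67 (284 CPM) above them.

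Rises among lists of protein synthesis, folding and energy were smaller. Of 79 cytosolic ribosomal protein genes tested, 8 rose (10.1%, against 3.99% of all genes) and none fell, and their median log2 fold change was 0.20, against 0.03 with all 3 libraries. RPS24 had 2220, 2294 and 1775 CPM in N2V7_S4, against 1427, 1521 and 1401 CPM in N2V7_NTG, a log2 fold change of 0.46 ± 0.05 (adjusted p = 2.31e-10). RPL12 changed by 0.39 ± 0.05 (adjusted p = 3.48e-09), and neither RPS24 nor RPL12 reached the minimum fold without N2V7_S4 library 1 as well or with the offset for GC content and length, where 5 members of the list rose. Ribosomal protein genes have many processed pseudogenes, so their counts are uncertain. Of 78 mitochondrial ribosomal protein genes 8 rose (10.3%) and 1 fell, and of 79 oxidative phosphorylation genes 5 rose (6.33%) and none fell, against 3.99% of all genes higher and 7.41% lower, with medians of 0.15 and 0.13. With the offset, where 2.44% of all genes rose, those counts were 3 higher and 0 lower, and 1 higher and 0 lower, near the share of all genes for the first list and below it for the second. COX4I1, a subunit of cytochrome c oxidase, changed by 0.39 ± 0.04 (adjusted p = 1.63e-09) and by 0.29 with the offset, under the minimum fold.

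Of 39 genes that answer unfolded proteins in the endoplasmic reticulum, 3 rose and none fell (7.69% and 0%, against 3.99% and 7.41% of all genes), and 2 rose with the offset. XBP1, its transcription factor, had 423, 358 and 407 CPM in N2V7_S4, against 302, 301 and 319 CPM in N2V7_NTG, a log2 fold change of 0.43 ± 0.06 (adjusted p = 6.43e-08). HERPUD1, which acts in the degradation of misfolded proteins, had 126, 110 and 119 CPM in N2V7_S4 and 94.0, 87.3 and 96.9 CPM in N2V7_NTG, a log2 fold change of 0.40 ± 0.07 (adjusted p = 4.70e-06). Both kept all 3 N2V7_S4 libraries above N2V7_NTG, and the third call, the chaperone gene DNAJB9 (0.46 ± 0.12, adjusted p = 0.00248), was lost with the offset (0.28, adjusted p = 0.116). Of 26 heat shock genes only HSPA1B, an inducible HSP70 gene, was called. It fell to 382, 516 and 356 CPM in N2V7_S4, against 684, 937 and 484 CPM in N2V7_NTG, a log2 fold change of -0.91 ± 0.17 (adjusted p = 0.000135), and it shares reads with the near-identical HSPA1A. Among 26 snoRNA host genes 4 rose (15.4%, against 3.99% of all genes) and none fell. SNHG1 led them with 149, 90.9 and 147 CPM in N2V7_S4, against 90.7, 82.4 and 91.3 CPM in N2V7_NTG, a log2 fold change of 0.74 ± 0.10 (adjusted p = 4.86e-07), and library 2 lay among the N2V7_NTG libraries. DANCR, SNHG8 and SNHG7 were the others. Of 36 glycolysis and hypoxia genes 4 rose (ADM, HILPDA, DDIT4 and SLC2A3, 11.1%) and none fell.

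Several short lists had no member called without library 2, where 11.4% of all genes were called. These were 21 SR proteins and splicing kinases, 22 eIF2 kinases and ribotoxic stress genes, 38 proteasome subunits and 10 structural RNAs. With the offset 1 member of each of the first 2 lists fell. Replication-dependent histone genes had a median log2 fold change of 0.33 over 30 tested, with 4 rises and 1 fall (13.3% and 3.33%, against 3.99% and 7.41% of all genes). H1-2, a linker histone, had 24.9, 15.9 and 29.0 CPM in N2V7_S4, against 14.4, 17.04 and 17.2 CPM in N2V7_NTG, a log2 fold change of 0.73 ± 0.19 (adjusted p = 0.00497). Library 2 lay among the N2V7_NTG values, and the call was lost without library 3 as well (0.63, adjusted p = 0.0623). H2BC21 changed by 0.69 ± 0.16 (adjusted p = 0.00112). H2AC18 and H2BC12 were also called higher, and the fall was H2AC13, a gene near 0 CPM for which no fold is given. Most histone mRNAs lack a poly(A) tail, so poly(A) selection measures them poorly.

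Of 43 genes tested in a list of very large proteins, 15 fell, 28 were not called and none rose without library 2 (34.9%, where 7.41% of all genes fell), with a median log2 fold change of -0.21 both without library 2 and with all 3 libraries. Their median transcript length was 12918 nt, and with the offset for GC content and length 4 of them fell (3.19% of all genes did). SPEN (chr1:15847707-15940456), a transcriptional corepressor that binds RNA, had 104, 269 and 143 CPM in N2V7_S4, against 319, 243 and 282 CPM in N2V7_NTG. Its libraries 1 and 3 were lower than every N2V7_NTG library and library 2 was not. The log2 fold change was -1.19 ± 0.16 without library 2 (adjusted p = 9.41e-07), -0.98 with the offset, and -0.71 ± 0.33 with all 3 libraries (adjusted p = 0.329). KMT2D, a histone H3 lysine 4 methyltransferase, had 47.7, 78.4 and 61.9 CPM in N2V7_S4, against 108, 87.0 and 104 CPM in N2V7_NTG, with no overlap and a log2 fold change of -0.87 ± 0.14 (adjusted p = 1.72e-05). MYH9, the heavy chain of nonmuscle myosin and 1 of 3 falls among 24 SRF and YAP target genes and the only 1 of them left with the offset, had 129, 213 and 169 CPM in N2V7_S4, against 271, 246 and 260 CPM in N2V7_NTG, also with no overlap. Its log2 fold change was -0.81 ± 0.08 (adjusted p = 2.90e-09) and -0.56 with the offset.

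Of 25 nuclear speckle scaffold genes, 9 fell and none rose without library 2 (36%, against 7.41% of all genes), with a median log2 fold change of -0.26, and 7 fell with the offset. Nuclear speckles are bodies that store and organise splicing factors. With all 3 libraries the median was 0.01. SRRM2, a core protein of the speckle, had 501, 799 and 584 CPM in N2V7_S4, against 930, 841 and 859 CPM in N2V7_NTG, so that even library 2 lay below the lowest N2V7_NTG library. Its log2 fold change was -0.70 ± 0.08 (adjusted p = 9.60e-08), and -0.46 with the offset. SRRM1 had 140, 376 and 155 CPM in N2V7_S4, against 246, 235 and 214 CPM in N2V7_NTG, and there library 2 was the highest of the 6. The change of -0.65 ± 0.12 without library 2 (adjusted p = 9.69e-05) was -0.06 ± 0.36 with it. LUC7L, a U1 snRNP-associated factor, had 5.59, 9.88 and 6.54 CPM in N2V7_S4, against 11.6, 10.9 and 10.99 CPM in N2V7_NTG, a log2 fold change of -0.88 ± 0.18 (adjusted p = 0.000172). The others were ACIN1, NKTR, ARGLU1, THRAP3, SCAF1 and the long non-coding RNA NEAT1, the last 2 of which lost their call with the offset. Among 78 hnRNPs and splicing factors, 7 fell and 2 rose (8.97% and 2.56%), near the 7.41% and 3.99% of all genes, and 7 fell and none rose with the offset.

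Of 83 ribosome biogenesis genes 13 fell and 3 rose (15.7% and 3.61%, against 7.41% and 3.99% of all genes), and 8 fell with the offset. Of 64 mitosis and kinetochore genes 5 fell and none rose, and the 7.81% that fell is close to the 7.41% of all genes. With the offset, where 3.19% of all genes fell, 6 did. TCOF1, which encodes the nucleolar protein treacle, had 92.7, 177 and 131 CPM in N2V7_S4, against 237, 211 and 230 CPM in N2V7_NTG, with no overlap and a log2 fold change of -1.03 ± 0.14 (adjusted p = 1.04e-06). DDX51, an RNA helicase of ribosome assembly, changed by -1.11 ± 0.19 (adjusted p = 6.41e-06), with 5.68, 9.47 and 8.28 CPM in N2V7_S4 and 17.004, 16.02 and 11.7 CPM in N2V7_NTG. For both genes all 3 N2V7_S4 libraries were lower. MKI67 (chr10:128096659-128126423), which encodes the proliferation marker Ki-67, had 50.2, 284 and 106 CPM in N2V7_S4, against 227, 149 and 199 CPM in N2V7_NTG. The change of -1.32 ± 0.27 without library 2 (adjusted p = 0.000484) became -0.40 ± 0.55 with it (adjusted p = 0.712), since library 2 was the highest of the 6, and it was -0.84 without libraries 1 and 2 (adjusted p = 0.114). The kinetochore genes CENPF and CENPE followed the same order, with 69.2, 208 and 93.7 CPM of CENPF and 18.4, 65.3 and 23.1 CPM of CENPE in N2V7_S4. N2V7_NTG had 157, 116 and 142 CPM of CENPF and 38.9, 28.8 and 36.7 CPM of CENPE. Their log2 fold changes without library 2 were -0.77 ± 0.14 and -0.75 ± 0.14 (adjusted p = 5.85e-05 and 0.000111), and -0.17 ± 0.38 and 0.02 ± 0.45 with it. The falls of MKI67, CENPF and CENPE thus rest on libraries 1 and 3. Of 58 DNA replication genes 5 fell and 4 rose (8.62% and 6.9%, against 7.41% and 3.99% of all genes), and with the offset 2 fell and none rose. The largest falls were LIG1, a DNA ligase, at -0.61, and UHRF1, which maintains DNA methylation, at -0.49 ± 0.08 (adjusted p = 2.78e-06).

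Of 31 p53 targets, 8 fell and 2 rose (25.8% and 6.45%, against 7.41% and 3.99% of all genes), and with the offset 5 fell and none rose, where 3.19% and 2.44% of all genes did. The large T antigen that HEK293T cells carry binds p53. POLH, a translesion DNA polymerase, had 35.0, 46.9 and 35.0 CPM in N2V7_S4, against 54.9, 51.8 and 48.6 CPM in N2V7_NTG, a log2 fold change of -0.56 ± 0.10 (adjusted p = 4.16e-05). BAX, which permeabilises mitochondria in apoptosis, had 36.2, 27.1 and 38.6 CPM in N2V7_S4, against 46.2, 48.5 and 48.9 CPM in N2V7_NTG, a log2 fold change of -0.36 ± 0.08 (adjusted p = 0.000533), or -0.31 without library 1 as well, under the minimum fold. Both had all 3 N2V7_S4 libraries below N2V7_NTG. PMAIP1, which encodes the BH3-only protein NOXA, moved the other way, with 344, 629 and 317 CPM in N2V7_S4, against 264, 239 and 260 CPM in N2V7_NTG. Its log2 fold change was 0.38 ± 0.06 (adjusted p = 2.41e-06), and it was under the minimum fold with the offset (0.16) and without library 1 as well (0.32).

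The rule for the largest falls named 12 genes, of which SPEN and MKI67 are given above. LINC01000, a long non-coding RNA on chromosome 7, had 2.46, 3.40 and 3.27 CPM in N2V7_S4, against 10.4, 9.31 and 9.26 CPM in N2V7_NTG, a log2 fold change of -1.76 ± 0.21 (3.39-fold lower, adjusted p = 7.57e-09). TNRC18 (chr7:5306811-5423834) had 17.4, 30.7 and 24.5 CPM in N2V7_S4, against 49.5, 48.4 and 44.6 CPM in N2V7_NTG, a log2 fold change of -1.19 ± 0.12 (adjusted p = 1.38e-10). GATD1 (chr11:767222-777487) had 16.9, 9.06 and 20.8 CPM in N2V7_S4, against 48.1, 50.9 and 39.3 CPM in N2V7_NTG, a log2 fold change of -1.30 ± 0.24 (adjusted p = 8.85e-05). For these 3 genes every N2V7_S4 library was lower than every N2V7_NTG library. MAPK8IP3, a scaffold of the JNK pathway and of axonal transport, changed by -1.24 ± 0.24 (adjusted p = 0.000158), with 4.83, 8.03 and 5.97 CPM in N2V7_S4 and 15.4, 11.6 and 10.99 CPM in N2V7_NTG. CPT1B, the muscle form of the enzyme that admits fatty acids to mitochondria, changed by -1.32 ± 0.30 (adjusted p = 0.00113), with 2.71, 2.06 and 3.75 CPM in N2V7_S4 and 9.20, 7.17 and 7.60 CPM in N2V7_NTG. Untransfected cells had 10.1 ± 2.18 CPM of GATD1, 3.54 ± 0.438 CPM of CPT1B and 8.81 ± 0.934 CPM of LINC01000 (SD, n = 3 each), so that for GATD1 and CPT1B they lay nearer to N2V7_S4 and for LINC01000 nearer to N2V7_NTG. Without N2V7_S4 library 1 as well, the calls of CPT1B (-1.09, adjusted p = 0.0696), LINC01061 and PKD1P1 were lost. The pseudogene ZNF767P changed by -1.19 ± 0.20 and the long non-coding RNA LINC01061 by -1.46 ± 0.33. PKD1P3-NPIPA1, PKD1P1 and PKD1P6-NPIPP1, with log2 fold changes of -1.57, -1.24 and -1.20, belong to a multigene family of chromosome 16 that shares sequence with PKD1, and their counts are uncertain. With all 3 libraries their changes were -1.15, -1.28 and -0.58. Library 2 lay among the N2V7_NTG libraries for PKD1P3-NPIPA1 and PKD1P6-NPIPP1. Genes known by a locus symbol alone, 1 rise and 2 falls, also met the rule.

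**Figure D4:**
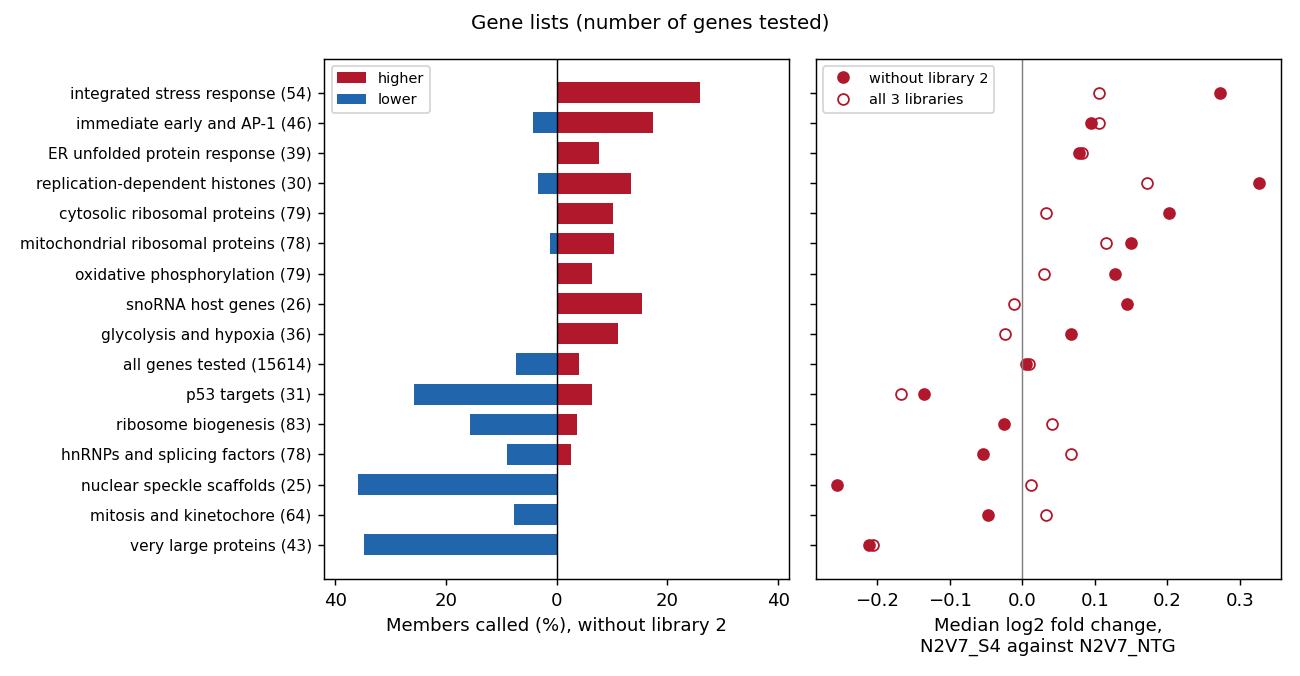
Left, percent of the members of each gene list called higher (red) or lower (blue) in N2V7_S4 without library 2, beside all genes tested (3.99% and 7.41%). Right, median log2 fold change of each list without library 2 (filled) and with all 3 libraries (open), where the median of nuclear speckle scaffolds is -0.26 without library 2 and 0.01 with it.

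To ask whether S4 acted differently with N2V7 than with the other effectors, the S4 effect in N2V7 cells was set against that in WT RfxCas13d and in N2V8 cells, each against its own non-targeting libraries, without library 2 of N2V7_S4. The effect differed between N2V7 and WT for 1282 of 15614 genes (8.21%), 487 higher (3.12%) and 795 lower (5.09%), and between N2V7 and N2V8 for 1568 (10%), 616 higher (3.95%) and 952 lower (6.1%). With all 3 N2V7_S4 libraries, 54 libraries and no factor, the counts were 1955 and 2198, and the share of higher genes was 52.5% and 54.8%, in place of 38.0% and 39.3%. Without N2V7_S4 library 1 as well the counts were 779 and 973, and with the offset for GC content and length they were 714 and 627. In WT cells S4 changed 256 genes against WT_NTG (1.64%; 1.36% higher and 0.275% lower), and in N2V8 cells 925 genes against N2V8_NTG (5.92%; 2.81% higher and 3.12% lower).

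FOS differed from both effectors. Its log2 fold change of 1.38 in N2V7 stood beside -0.04 ± 0.14 in WT cells and 0.08 ± 0.15 in N2V8 cells, and the differences were 1.42 ± 0.21 (adjusted p = 2.90e-06) and 1.30 ± 0.22 (adjusted p = 2.84e-05). CGA, with 0.17 ± 0.22 in WT and 0.09 ± 0.25 in N2V8, also differed from both, by 1.18 ± 0.37 (adjusted p = 0.0255) and 1.26 ± 0.39 (adjusted p = 0.0240), and neither difference was called with the offset for GC content and length. Its level was 7.16 CPM in N2V7_S4 (libraries 1 and 3), 8.57 in WT_S4 and 5.61 in N2V8_S4, against 2.84 in N2V7_NTG, 7.64 in WT_NTG and 5.23 in N2V8_NTG, so that N2V7_NTG was the lowest of the 6 groups. CGA was also called higher with the crRNAs S3, S7 and S13 under N2V7, by 0.92, 0.84 and 1.02, each against the same N2V7_NTG libraries. SAT1 differed from WT by 0.97 ± 0.20 (adjusted p = 0.000943) and from N2V8 by 0.80 ± 0.20 (adjusted p = 0.00624), the latter not called with the offset. SAT1 had 273, 306 and 221 CPM with S4 in N2V7 (libraries 1 and 3), WT and N2V8 cells. With the non-targeting crRNA it had 130, 286 and 184 CPM in that order, so that N2V7_NTG was again the lowest. SAT1 was also called higher with S3, S7 and S13 under N2V7, by 0.64, 0.75 and 0.80. No direct difference of N2V7_S4 from these crRNAs was called for SAT1. SPEN differed by -1.14 ± 0.21 from WT and by -1.16 ± 0.21 from N2V8 (adjusted p = 0.000259 and 0.000258). TNRC18 differed by -1.11 ± 0.16 and -1.23 ± 0.16 (adjusted p = 1.42e-06 and 6.02e-07). SPEN had 124, 264 and 168 CPM with S4 in N2V7 (libraries 1 and 3), WT and N2V8 cells. With the non-targeting crRNA it had 281, 273 and 171 CPM in that order. TNRC18 had 20.96, 34.99 and 28.2 CPM with S4, and 47.5, 37.1 and 27.4 CPM with the non-targeting crRNA. N2V7_NTG was thus the highest non-targeting group for both genes. Under N2V7, TNRC18 was also called lower with S3, S7 and S13 (-0.37, -1.18 and -0.97), and SPEN with S7 and S13 (-1.26 and -1.04).

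For ASNS and G0S2, N2V7 differed from WT and no difference from N2V8 was called. ASNS changed by 0.90 with N2V7, by -0.04 ± 0.12 with WT and by 1.07 ± 0.12 with N2V8, so that the difference was 0.94 ± 0.18 from WT (adjusted p = 0.000364) and -0.17 ± 0.18 from N2V8 (adjusted p = 0.601). G0S2 changed by 1.05, 0.20 ± 0.12 and 1.22 ± 0.14 in that order, with a difference of 0.85 ± 0.19 from WT (adjusted p = 0.00168) and -0.17 ± 0.21 from N2V8 (adjusted p = 0.664). Of the 54 integrated stress response genes 20 were higher and none lower in the difference from WT (3.12% and 5.09% of all genes), and none higher and 6 lower in the difference from N2V8 (3.95% and 6.1%). Medians were 0.27 in N2V7, -0.04 in WT and 0.34 in N2V8, and N2V8 had 29 rises. GATD1 likewise had -1.30 with N2V7, 0.21 ± 0.21 with WT and -0.98 ± 0.21 with N2V8. ASNS had mean levels of 778, 900 and 852 CPM with S4 in N2V7 (libraries 1 and 3), WT and N2V8 cells. With the non-targeting crRNA ASNS had 418, 926 and 406 CPM in that order. G0S2 had 21.6, 24.6 and 20.3 CPM with S4, and 10.4, 21.4 and 8.65 CPM with the non-targeting crRNA. GATD1 had 18.8, 23.0 and 19.5 CPM, and 46.1, 19.9 and 38.5 CPM. For these genes the effectors thus differed more with the non-targeting crRNA than with S4.

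Histone genes rose less with N2V7 than with WT. In WT cells 13 of 30 replication-dependent histone genes rose with S4, where 1.36% of all genes did. Their median log2 fold change was 1.21, against 0.33 with N2V7. In N2V8 cells 1 rose (2.81% of all genes did) and the median was -0.06. In the difference between N2V7 and WT 6 were lower and none higher (5.09% and 3.12% of all genes). H2BC21 changed by 0.69 with N2V7 and 2.29 ± 0.12 with WT, a difference of -1.60 ± 0.21 (adjusted p = 2.62e-07). H4C15, with 34.0, 39.95 and 47.1 CPM in N2V7_S4 and 34.7, 41.5 and 40.01 CPM in N2V7_NTG, changed by 0.06 ± 0.18 with N2V7 and by 2.01 ± 0.15 with WT.

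**Figure D5:**
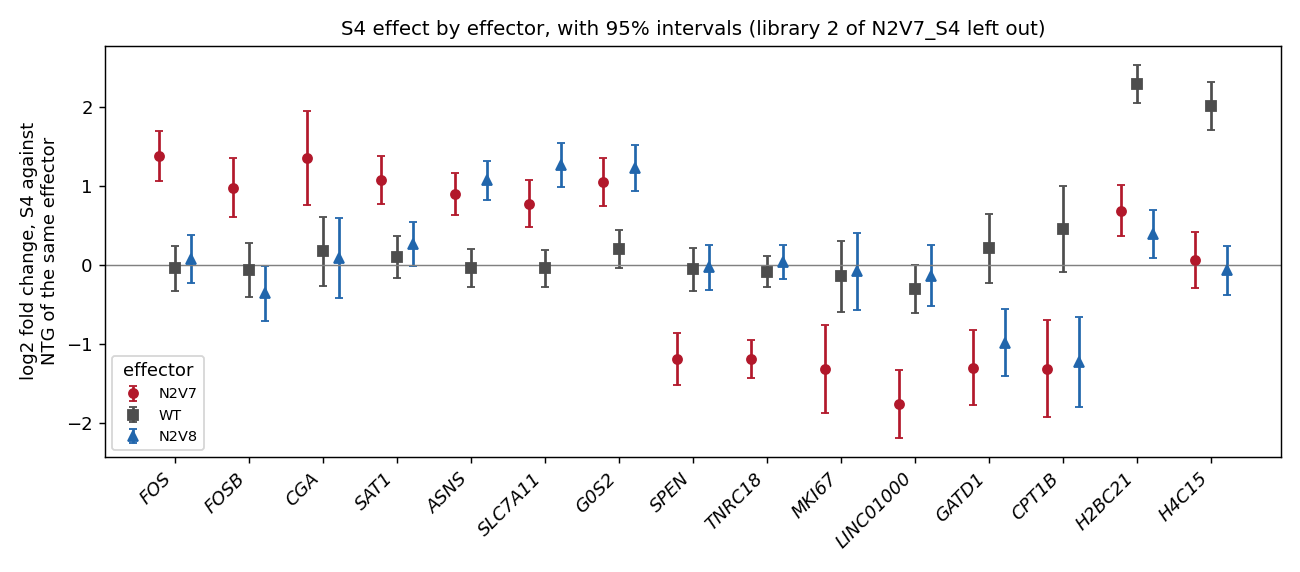
Log2 fold change of S4 against the non-targeting crRNA of the same effector for 15 genes, with N2V7 (red circles, library 2 left out), WT (grey squares) and N2V8 (blue triangles). Bars are 95% intervals. FOS is at 1.38 with N2V7, -0.04 with WT and 0.08 with N2V8, and H2BC21 is at 0.69 with N2V7 and 2.29 with WT.

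N2V7_S4 was last compared directly with the other targeting crRNAs under N2V7, a contrast without the N2V7_NTG means, although those libraries enter the fit's spread and factor. Without library 2, 235 genes differed from N2V7_S13 (1.51%; 68 or 0.436% higher, 167 or 1.07% lower), 305 from N2V7_S7 (1.95%; 82 or 0.525% higher, 223 or 1.43% lower) and 1764 from N2V7_S3 (11.3%; 557 or 3.57% higher, 1207 or 7.73% lower). With library 2 in a fit of 54 libraries without a factor, those counts were 2504, 2729 and 3535. Without library 1 as well they were 63, 66 and 978, and without library 3 in its place 679, 830 and 2252, and 934 genes differed from N2V7_S3 with the offset for GC content and length. FOS was higher in N2V7_S4 than in N2V7_S13 by 1.201 (adjusted p = 7.75e-08) and than in N2V7_S3 by 1.24 (adjusted p = 4.14e-08) on the log2 scale, and the difference from N2V7_S7 was 0.36 (adjusted p = 0.121). SPEN was lower than in N2V7_S3 by -1.09 (adjusted p = 8.59e-06), with differences of -0.16 from N2V7_S13 and 0.07 from N2V7_S7 (adjusted p = 0.634 and 0.867). ZNF767P was called lower than in N2V7_S13, N2V7_S3 and N2V7_S7 (-1.65, -1.60 and -1.40). LINC01061 and LINC01000 were called lower than in N2V7_S3 alone (-1.55 and -2.08). Both were also called lower with S7 and S13 against N2V7_NTG. GATD1 was called lower with S3, S7 and S13 against N2V7_NTG (-0.88, -0.60 and -0.64), and no direct difference was called for it. No integrated stress response gene was higher in N2V7_S4 than in any of the 3 crRNAs, and 1 was lower than in N2V7_S3 and 2 than in N2V7_S7. Of 31 p53 targets, 7 were lower than in N2V7_S7 (1.43% of all genes were) and 3 lower than in N2V7_S13 (1.07%). None was higher than in either. Against N2V7_S3, 7 were lower (7.73%) and 1 was higher (3.57%). Very large proteins were lower than in N2V7_S3 for 21 of 43 genes (7.73% of all genes were), against 0 in N2V7_S13 and 0 in N2V7_S7, with 1 higher than in N2V7_S7. Oxidative phosphorylation genes were higher than in N2V7_S3 for 26 of 79 (3.57% of all genes were), and none differed from N2V7_S13 or N2V7_S7. Median transcript length was 12918 nt for very large proteins and 758 nt for oxidative phosphorylation genes. These list counts are without the offset, which moved the share of higher calls against N2V7_S3 from 31.6% to 59.1%.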

How the data were processed

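RNA sequencing (poly(A)-selected, stranded libraries) of HEK293T cells was analysed from the deposited table of estimated counts for 38137 genes in 54 libraries of 18 groups. Per the labels and the study's methods, the authors made these estimated counts with Salmon 1.5.2 on NCBI spliced transcripts with a genome decoy and summed them to genes with length scaling in R 4.2.2. The authors also deposited a mark, in a column of other type, for 15464 genes they kept, used only as an alternative filter.

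Counts were rounded, filtered with filterByExpr and scaled by TMM in R 4.3.3 with edgeR 4.0.16 (quasi-likelihood test, Benjamini-Hochberg adjustment), limma 3.58.1 and DESeq2 1.42.0. A gene was called at an adjusted p under 0.05 and a fold over 1.25. With all 3 N2V7_S4 libraries, the fit held 6 libraries (4 residual degrees of freedom). Without library 2, it held 53 libraries, 1 term per group and 1 RUVr factor (34 residual degrees of freedom). Differences between effectors and between crRNAs came from the latter fit, with p-values adjusted over each family. All 54 libraries share 1 sequencing lane per the labels, and no other batch was given.

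The genes and lists were chosen with earlier results of these data known. Named were C9orf72, the 12 largest rises and 12 largest falls among called genes whose average level was 2 or more in log2 CPM and whose libraries 1 and 3 did not overlap N2V7_NTG, up to 3 called members per list, the largest differences between effectors, and the 8 genes farthest above and 8 farthest below in library 2. Members named without statistics complete a count. Transcript lengths and GC content were taken from the canonical transcripts of GENCODE. Coordinates, gene positions and promoters were taken from RefSeq (GRCh38.p14). Scripts were tested on simulated data.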

Additional observations from a re-analysis of the deposited data

Results flagged for a closer look

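The S4 effect, as the log2 fold change against the non-targeting crRNA of the same effector, differed between N2V7 and the other effectors by a test of the difference itself, and the 5 largest differences in each direction are given for each pair, without library 2 of N2V7_S4.

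Between N2V7 and WT, the effect was higher with N2V7 for FOS by 1.42, for CGA by 1.18, for PDE1A, a cyclic nucleotide phosphodiesterase gene, by 1.09, for PCK1 by 1.06 and for FOSB by 1.04. It was lower for the histone gene H2AC18 (-2.15), for MIR17HG, the host of a microRNA cluster (-2.00), for the histone gene H4C15 (-1.95), for CPT1B (-1.77) and for LINC01521 (-1.62). Of these 10, only the CGA difference lost its call when some single libraries were left out, and it was also the only 1 not called with the offset for GC content and length.

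Between N2V7 and N2V8, the effect was higher with N2V7 for CZ1P-ASNS by 1.73, for CDHR4, a cadherin family gene, by 1.55, for FOSB by 1.34, for FOS by 1.30 and for CGA by 1.26. It was lower for LINC01000 (-1.62), LINC01061 (-1.61), FLJ42627 (-1.57), NBPF26 (-1.47) and AKNA (-1.44). CDHR4 and AKNA were not called with S4 in N2V7 cells themselves, at 0.32 ± 0.28 and 0.15 ± 0.23 (edgeR adjusted p = 0.471 and 0.722), and changed in N2V8 cells by -1.23 ± 0.28 and 1.59 ± 0.21. CZ1P-ASNS shares reads with ASNS and NBPF26 belongs to a multigene family, so both counts are uncertain. The NBPF26 difference kept its call in 1 of 5 fits that left out a library, CGA in 3 of 5, and CDHR4, LINC01061 and FLJ42627 in 4 of 5. The NBPF26 and CGA differences were not called with the offset, and CZ1P-ASNS, LINC01000, LINC01061 and FLJ42627 have no length or GC content and were not tested with it.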

How the results depend on the processing

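The comparison with all 3 N2V7_S4 libraries depended on how the spread was estimated. Its count of 0 became 352 with DESeq2 (121 higher, 231 lower), 2214 with sample quality weights on 6 libraries (855 higher, 1359 lower), 2792 with such weights on 54 libraries (1101 higher, 1691 lower, chosen after seeing the data), 3494 over 54 libraries without a factor (1731 higher, 1763 lower) and 4022 with a factor (1616 higher, 2406 lower). Leaving out 1 library gave 0 to 1405 calls (0 to 463 higher, 0 to 942 lower), and the 1405 came without library 2. Without library 2, the count of 1780 became 3379 with no minimum fold (1644 higher), and 838 with the offset for GC content and length (363 higher, 475 lower, 43.3% of them higher in place of 35.0%). Leaving out 1 more library gave 1066 to 2222 (364 to 956 higher, 702 to 1266 lower).

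For the difference from WT the count of 1282 became 1955 with library 2 in a fit of 54 libraries without a factor, 714 with the offset, and 779 to 1609 without 1 library. For the difference from N2V8 the count of 1568 became 627 with the offset and 973 to 1903 without 1 library. The offset moved the share of higher calls to 52.2% and 53.9%, in place of 38.0% and 39.3%. Against N2V7_S13 the count of 235 became 2504 with library 2 and 63 to 679 without 1 library, against N2V7_S7 305 became 2729 and 66 to 830, and against N2V7_S3 1764 became 3535 and 978 to 2252, with 934 under the offset. The lowest and highest of these came without N2V7_S4 libraries 1 and 3, in that order. These leave-one-out and offset fits were chosen after seeing the data, and libraries of groups other than N2V7_S4 and N2V7_NTG were not left out.

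The C9orf72 change without library 2 ranged from -0.27 to 0.10 when 1 more library was left out, the last without N2V7_S4 replicate 3 (adjusted p = 0.627). With all 3 libraries it ranged from -0.072 to 0.18, the first without replicate 2 (adjusted p = 0.756), and it was -0.20 with the offset (adjusted p = 0.543). MKI67 with all 3 libraries ranged from -1.30 to 0.014, the last without N2V7_S4 replicate 1 (adjusted p = 0.987). The SD of library 2 was 0.929 with a prior count of 0.5. Over the named genes and their alternatives, 1614 values kept direction and side of the threshold without library 2, 140 fell short of it and 1 changed sign, and with all 3 libraries 342 kept both, 126 passed it and 3 changed sign. Those 4 are the C9orf72 and MKI67 values given above with their adjusted p, none of them called. The cause of these shifts was not tested.

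With the replicate number as a block, 1778 genes were called without library 2 (1709 shared with the fit without the block) and 0 with all 3 libraries. Same-numbered libraries of both groups deviated with correlations of -0.019, 0.017 and 0.050, so no pairing by number was seen. Deviations were taken from group means that include library 2 of N2V7_S4, which stood apart, so these values cannot exclude pairing. Replicates are described as independent, but p-values measure only the spread between these libraries.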
